A study of Mus musculus with 10 samples.

Results

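CXC chemokines are small secreted proteins that guide leukocytes, and 8 of their genes were followed in mouse liver over 3 days after an overdose of acetaminophen. The 8 genes were Cxcl1, Cxcl2, Cxcl9, Cxcl10, Cxcl12, Cxcl13, Cxcl14 and Cxcl16, and every probe whose gene name in the scanner output was one of these was taken. They had 11 probes of 39429 on the array, all 11 passed the filter on dim probes, and they gave 8 of the 24007 genes tested. Female C57BL/6 mice, 8 weeks old and without food for the preceding 24 h, received 1 intraperitoneal dose of acetaminophen (350 mg/kg) dissolved in phosphate-buffered saline, while control mice received saline only. Livers were taken 3, 8, 24, 48 and 72 h later. Each of 10 Agilent 2-colour arrays carried RNA of 1 treated mouse in the Cy5 channel and RNA of 1 control mouse in the Cy3 channel, with 2 arrays per time point. All animals shared the strain, the sex, the age and the fast. Treated RNA was always in Cy5, so treatment and dye cannot be told apart within a time point. In whole liver RNA, fewer cells of a type and less RNA per cell cannot be told apart.

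Chemokines with the sequence Glu-Leu-Arg ahead of the CXC motif, among them Cxcl1, Cxcl2 and Cxcl5, act on the receptor Cxcr2 and attract neutrophils. Cxcl9, Cxcl10 and Cxcl11 lack that sequence, are known as interferon-inducible, and act on Cxcr3 of activated T and NK cells. Cxcl12 acts on Cxcr4 and Ackr3 and is made constitutively by stromal and endothelial cells, Cxcl13 acts on Cxcr5 of B cells, Cxcl16 is a membrane-bound ligand of Cxcr6, and Cxcl14 is a constitutive chemokine of epithelia. Transcription of the inflammatory members is known to be driven by NF-kB, and that of the interferon-inducible members by interferon regulatory factors as well.

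The genes of Cxcl1 and Cxcl2 were protein-coding neighbours on mouse chromosome 5, and 1 protein-coding gene, Art3, lay between Cxcl9 and Cxcl10 on the same chromosome. Promoter entries of the RefSeq table (build GRCm38.p6) matched 7 of the 8 genes by symbol, all but Cxcl16. At 48 h Cxcl1 was called higher, while Cxcl2, which was near the detection limit, was not called. By the scanner software's own log ratio the 48 h values were 2.72 for Cxcl1 and 2.13 for Cxcl2. Cxcl10 was called higher and Cxcl9 lower at 48 h. The difference between the genes of a pair was not tested. The 250 bases before the start site are shown for the neighbours in each pair. They lie at chr5:90890995-90891244 (plus strand) for Cxcl1, chr5:90903649-90903898 (plus strand) for Cxcl2, chr5:92348890-92349139 (minus strand) for Cxcl10 and chr5:92328080-92328329 (minus strand) for Cxcl9. Each is written 5′ to 3′ toward the start site, and capitals mark matches to the NF-kB consensus, to the core of the interferon-stimulated response element (GAAA, then any 2 bases, then GAAA) and to the AP-1 site (TGANTCA), searched on both strands.
Cxcl1 promoter: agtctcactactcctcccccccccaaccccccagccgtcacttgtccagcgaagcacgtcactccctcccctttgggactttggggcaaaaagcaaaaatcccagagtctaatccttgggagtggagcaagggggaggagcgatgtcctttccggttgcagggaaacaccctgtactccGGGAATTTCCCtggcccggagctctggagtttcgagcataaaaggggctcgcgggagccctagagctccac
Cxcl2 promoter: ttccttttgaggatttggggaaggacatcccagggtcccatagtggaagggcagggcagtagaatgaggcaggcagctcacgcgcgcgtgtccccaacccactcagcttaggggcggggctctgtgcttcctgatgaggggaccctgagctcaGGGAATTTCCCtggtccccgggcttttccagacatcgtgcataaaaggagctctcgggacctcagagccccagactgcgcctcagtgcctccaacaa
Cxcl10 promoter: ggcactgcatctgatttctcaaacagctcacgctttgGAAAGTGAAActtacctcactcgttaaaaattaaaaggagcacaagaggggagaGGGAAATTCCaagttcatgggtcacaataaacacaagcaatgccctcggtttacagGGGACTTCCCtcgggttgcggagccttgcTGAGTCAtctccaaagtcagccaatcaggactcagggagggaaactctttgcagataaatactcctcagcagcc
Cxcl9 promoter: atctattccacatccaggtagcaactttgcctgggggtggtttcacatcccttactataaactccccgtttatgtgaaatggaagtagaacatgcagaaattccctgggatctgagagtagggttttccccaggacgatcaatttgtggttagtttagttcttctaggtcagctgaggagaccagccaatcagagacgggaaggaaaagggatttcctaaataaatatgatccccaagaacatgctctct
Cxcl1 and Cxcl2 each held the NF-kB consensus once on each strand in a shared run of 11 bases, at -71 to -61 in Cxcl1 and at -97 to -87 in Cxcl2 from the start site. Cxcl10 held it at -159 to -150 and at -103 to -94, and also held the response element core at -213 to -204 and an AP-1 site at -74 to -68. None of these letters, nor the gamma-activated site (TTCNNNGAA), was found in the 250 bases of Cxcl9. Among the promoters of the table, 3.90% of 32841 held the NF-kB consensus in the same window, 2.98% the response element core, 6.75% the AP-1 site and 7.02% the gamma-activated site. The promoter windows of Cxcl12 and Cxcl13 held none of the 4 motifs, and that of Cxcl14 held a response element core at -172 to -163 and a gamma-activated site at -191 to -183. These matches describe the sequence, the motifs were chosen after the promoters had been read, and no binding was measured.

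The probes lie, in the mm9 coordinates of the array files, on chromosome 5 at 91321845 to 91321904 for Cxcl1 and at 91334534 to 91334593 for Cxcl2 (plus strand). On the same chromosome the probe used for Cxcl10 lies at 92775781 to 92775840, that for Cxcl9 at 92752191 to 92752250 (both minus strand) and that for Cxcl13 at 96389861 to 96389920. The probe used for Cxcl12 lies on chromosome 6 at 117131227 to 117131286, that for Cxcl14 on chromosome 13 at 56390078 to 56390137, and that for Cxcl16 on chromosome 11 at 70267780 to 70267839. Their place within exons was not analysed here.

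Signals were dim: 44.7% to 75.9% of probes were well above background in the treated channel and 59.8% to 83.7% in the control channel, and the log2 ratios of 2 arrays of a time point correlated across genes at 0.68, 0.80, 0.76, 0.86 and 0.27 at 3, 8, 24, 48 and 72 h. On 4 arrays (8 h replicate 3 and replicate 1 at 24, 48 and 72 h) the normexp model used for background correction put the mean background of the treated channel between -527.9 and -65.3 units, against -6.0 to -4.7 on the other 6 arrays. Corrected ratios of dim genes lay close to 0 on the worst of them: over all genes tested the interquartile range of log2 ratios was 0.01 on the 72 h replicate 1 array. Every result was therefore also computed after Edwards' background correction, chosen after these values were seen, under which the interquartile range of the same 4 arrays was 0.31 to 0.46. The values below are those of the normexp correction, as acetaminophen over control on the log2 scale with a standard error (SE) from limma and n = 2 arrays, and the Edwards value follows where it matters. Adjusted p-values are limma's, by Benjamini-Hochberg over all 24007 genes, with calls at 0.05.

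None of the 8 genes was called at 3 h, where none had an unadjusted p under 0.05 and 7.44% of all genes were called. At 8 h, 2 of 8 were called, both higher, against 12.9% of all genes (5.33% called higher). At 24 h, 3 of 8 were called (2 higher, 1 lower), against 10.9% of all genes (3.79% higher and 7.08% lower). At 48 h, 3 of 8 were called (2 higher, 1 lower), against 31.4% of all genes (17.9% higher and 13.5% lower), so the share among the chemokines was close to the background there. At 72 h none of the 8 was called, none had an unadjusted p under 0.05, and 0% of all genes were called. With Edwards' correction the counts were 0 of 8 at 3 h, 2 of 8 (both higher) at 8 h, 6 of 8 (4 higher, 2 lower) at 24 h, 4 of 8 (2 higher, 2 lower) at 48 h and 0 of 8 at 72 h, against 5.54%, 15.6%, 19.8%, 32.9% and 0.0167% of all genes. At 72 h, 2 of the 8 had an unadjusted p under 0.05 with that correction. The median log2 ratio of the 8 genes was -0.13, 0.12, 0.14, 0.24 and 0.02 from 3 to 72 h, and that of all genes lay between -0.01 and 0.00.

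**Figure D1:**
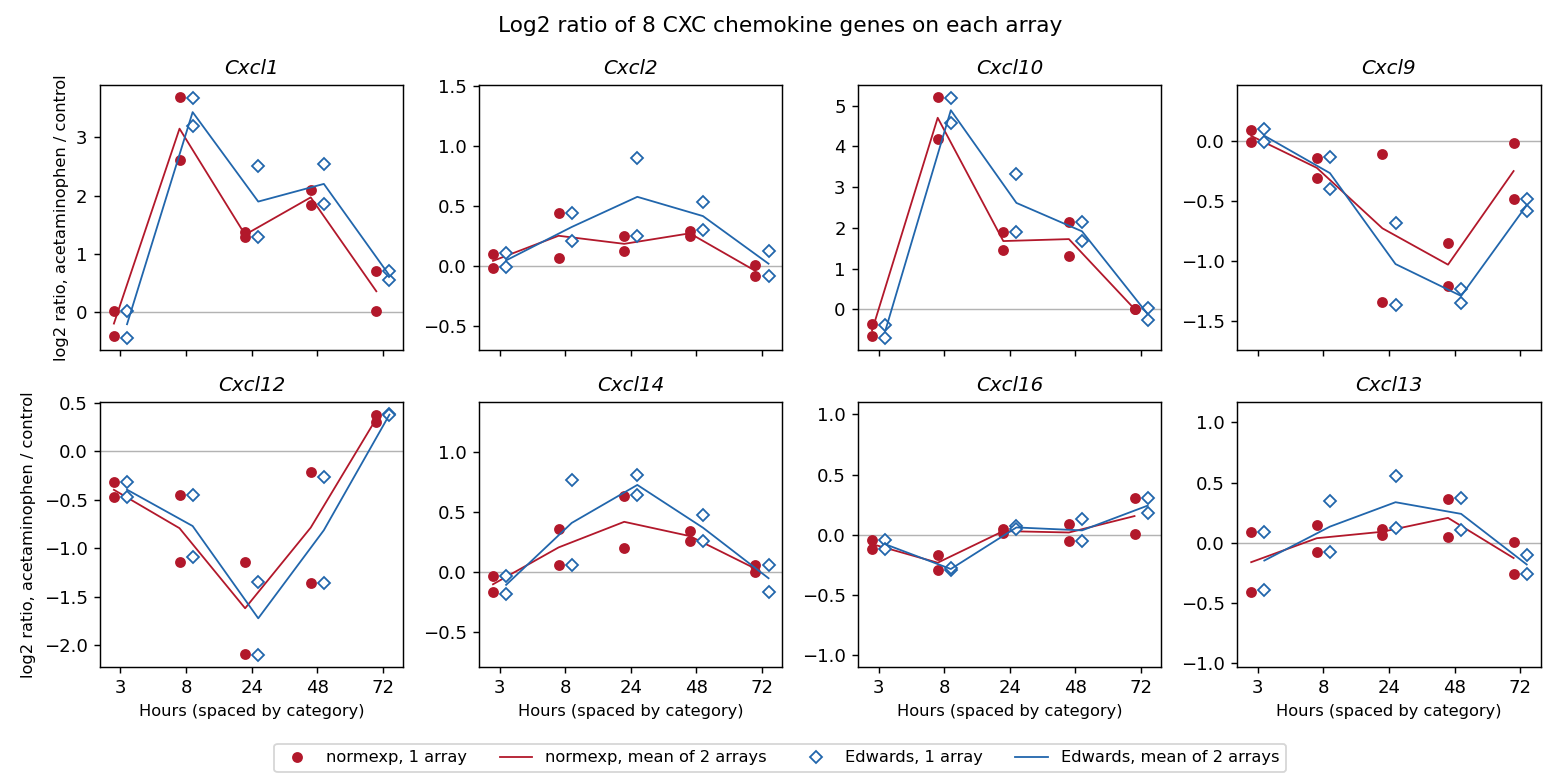
Log2 ratio of acetaminophen over control on each array for the 8 genes (vertical axis, its range set for each gene) against hours after injection (horizontal axis). Filled circles are single arrays after normexp, open diamonds the same arrays after Edwards' correction, and lines join the means of 2 arrays. Cxcl1 and Cxcl10 have their highest ratios at 8 h, while Cxcl9 and Cxcl12 lie below 0 on all 4 arrays of 24 and 48 h.

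Cxcl10 had the largest change of the 8 genes. The protein attracts activated T and NK cells through Cxcr3. Its log2 ratios were -0.67 and -0.37 at 3 h, 5.21 and 4.19 at 8 h, 1.46 and 1.89 at 24 h, 1.30 and 2.14 at 48 h, and -0.01 and 0.02 at 72 h. Both 8 h arrays lay above the other 8, and the 4 arrays of 24 and 48 h lay above those of 3 and 72 h. The share of all genes with such an order of arrays is not given here, so the order is a description only. The scanner signals behind the 8 h values were 3722 and 5405 units in acetaminophen livers, against 112.2 and 241 units in the control livers of the same arrays. At 3 h they were 57.5 and 205 units in acetaminophen livers, against 207 and 417 units in control livers, and the lower treated signal was not well above background.

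At 8 h the fitted Cxcl10 ratio was 4.70 ± 0.26 (SE, n = 2 arrays, adjusted p = 0.000153), a 26.1-fold higher level in acetaminophen livers, and 29.6-fold with Edwards' correction. At 24 h it was 1.67 ± 0.26 (adjusted p = 0.00537), or 3.19-fold, and with Edwards' correction 2.61 ± 0.30 (adjusted p = 0.000559), or 6.11-fold, with single arrays at 3.33 and 1.89. At 48 h it was 1.72 ± 0.26 (adjusted p = 0.00215), or 3.30-fold. The 3 h value of -0.52 ± 0.26 had an adjusted p of 0.270. The 24 h call was lost without replicate 3 of that time (1.46, adjusted p = 0.0873) and with median centring in place of loess (1.40, adjusted p = 0.138).

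The time points differed for Cxcl10 in the moderated F test over all 5 (adjusted p = 0.000965). The 8 h ratio exceeded that of 3 h by 5.22 ± 0.37 (adjusted p = 0.00485), and 0.825% of all genes were called in that comparison. The 24 h ratio was below that of 8 h, with a difference of -3.03 ± 0.37 (adjusted p = 0.00432), and 6.28% of all genes were called. Between 24 and 48 h the difference of 0.05 ± 0.37 was smaller than its error (adjusted p = 0.960), and with Edwards' correction it was -0.70 ± 0.43 (adjusted p = 0.337). The 72 h ratio was below that of 48 h by -1.72 ± 0.37 (adjusted p = 0.0187), where 16.6% of all genes were called. A second Cxcl10 probe, designed on another transcript record and lying at 92776616 to 92776675 on chromosome 5 (mm9), was well above background at 8 h but on no array of the other times. It read 1.15 and 0.54 on the 8 h arrays, with a fitted value of 0.85 ± 0.13 (adjusted p = 0.00626 in the fit over all probes, which called 12.3% of them).

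Cxcl1 encodes a neutrophil attractant that acts on Cxcr2. Its log2 ratios were -0.41 and 0.02 at 3 h, 3.69 and 2.60 at 8 h, 1.38 and 1.28 at 24 h, 2.09 and 1.85 at 48 h, and 0.02 and 0.70 at 72 h. The 2 arrays of 8 h were again the highest of the 10, and the 4 arrays of 24 and 48 h did not overlap those of 3 and 72 h. For this order too, the share of all genes is not given here. Scanner signals at 8 h were 1226 and 1166 units in acetaminophen livers, against 101 and 120.2 units in control livers. At 48 h they were 887 and 633 units in acetaminophen livers, against 99.1 and 92.2 units in control livers.

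The fitted Cxcl1 ratio was 3.15 ± 0.25 at 8 h (adjusted p = 0.000676), or 8.85-fold, and 10.8-fold with Edwards' correction. It was 1.33 ± 0.25 at 24 h (adjusted p = 0.0134), or 2.51-fold, and 1.97 ± 0.25 at 48 h (adjusted p = 0.00106), or 3.91-fold. With Edwards' correction the 24 h value was 1.90 ± 0.28 (adjusted p = 0.00200), or 3.72-fold. The 24 h call was lost when either array of that time was left out (1.38, adjusted p = 0.112, without replicate 3 and 1.28, adjusted p = 0.0945, without replicate 1), with slide as a block (1.32, adjusted p = 0.108) and with median centring (0.97, adjusted p = 0.211). At 3 h the value of -0.19 ± 0.25 had an adjusted p of 0.699. At 72 h it was 0.36 ± 0.25, and 0.63 ± 0.28 with Edwards' correction (adjusted p = 0.456).

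Cxcl1 differed between time points in the F test (adjusted p = 0.00392), and Cxcl10 and Cxcl1 were the only 2 of the 8 genes called by it, where 23.3% of all genes were called. With Edwards' correction Cxcl9 and Cxcl12 were called as well (adjusted p = 0.00958 and 0.0264), against 29.5% of all genes. The 8 h ratio of Cxcl1 exceeded that of 3 h by 3.34 ± 0.36 (adjusted p = 0.0182). The 24 h ratio was below that of 8 h, with a difference of -1.82 ± 0.36 (adjusted p = 0.0263). From 8 to 24 h the mean log2 level of Cxcl1 went from 10.42 to 9.72 in acetaminophen livers and from 7.27 to 8.39 in control livers. This difference thus holds a higher control level as well as a lower level in acetaminophen livers. The difference of 0.64 ± 0.36 between 48 and 24 h did not pass (adjusted p = 0.321), and none of the 8 genes was called in that comparison by limma, where none had an unadjusted p under 0.05 and 10.4% of all genes were called. The 72 h ratio was below that of 48 h by -1.61 ± 0.36 (adjusted p = 0.0214). With Edwards' correction, in which 22.1% of all genes were called between 72 and 48 h, the same difference was -1.57 ± 0.40 (adjusted p = 0.0248). In the fit without the 72 h replicate 1 array, none of the 8 genes was called between 72 and 48 h, and without the 3 h replicate 1 array none was called between 8 and 3 h. With median centring none of the 8 was called between 8 and 3 h, 24 and 8 h or 72 and 48 h, and with slide as a block none was called between 8 and 3 h or 24 and 8 h, so these calls of Cxcl1 and Cxcl10 depend on the setting.

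**Figure D2:**
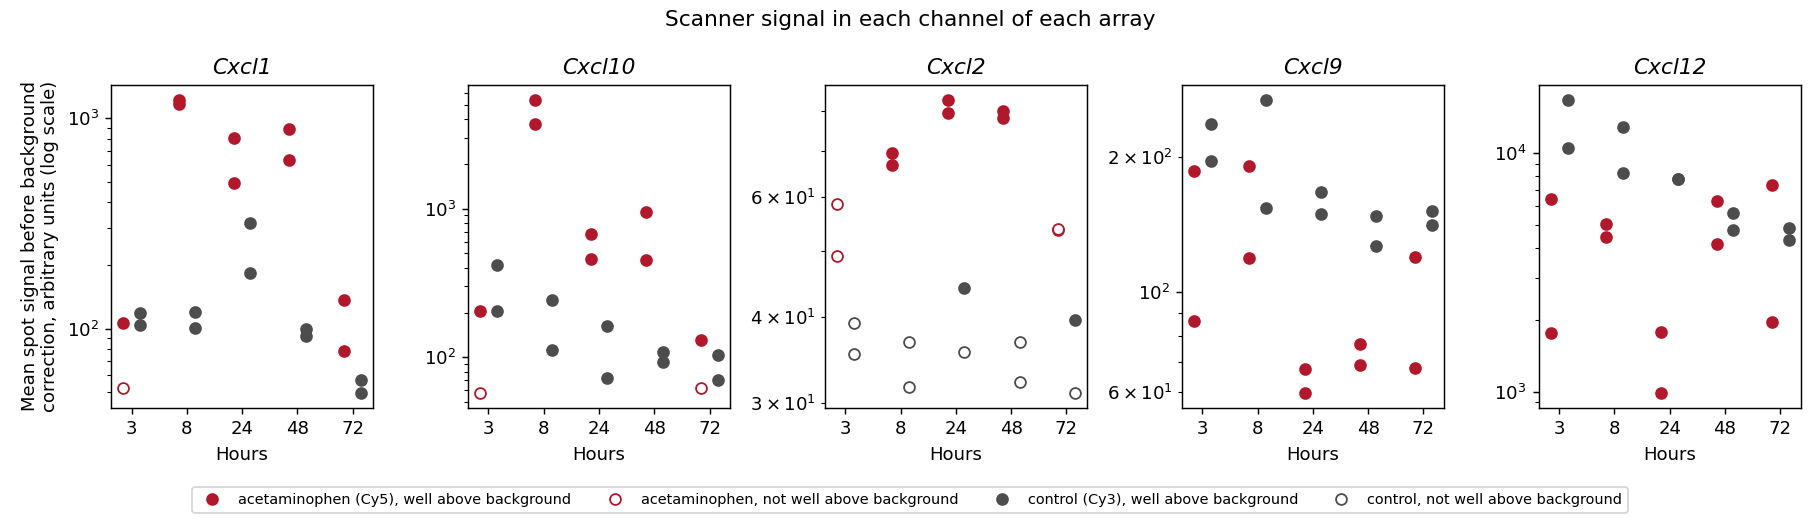
Mean spot signal before background correction (vertical log axis, arbitrary units, its range set for each gene) in the acetaminophen channel (red, left) and the control channel (grey, right) of each array, by hours after injection. Filled points were well above background by the scanner software. Cxcl1 and Cxcl10 signals in acetaminophen livers lie above all control signals of the same time at 8, 24 and 48 h, and Cxcl2 is well above background in acetaminophen livers at those 3 times only.

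Cxcl2, the neighbour of Cxcl1 and a second Cxcr2 ligand, was near the detection limit. Its signals in acetaminophen livers were 49.2 and 58.5 units at 3 h, 66.7 and 69.3 units at 8 h, 83.1 and 79.5 units at 24 h, 78.2 and 79.9 units at 48 h, and 53.6 and 53.8 units at 72 h. In control livers they were 35.4 and 39.3, 31.7 and 36.8, 35.6 and 44.2, 32.2 and 36.8, and 31.0 and 39.7 units at the same times. The probe was well above background in both acetaminophen livers at 8, 24 and 48 h and in neither at 3 or 72 h, and in 2 of 10 control livers, 1 at 24 h and 1 at 72 h.

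None of the 5 Cxcl2 ratios was called after normexp. They were 0.04 ± 0.10 at 3 h, 0.25 ± 0.10 at 8 h (adjusted p = 0.138), 0.19 ± 0.10 at 24 h (adjusted p = 0.340), 0.27 ± 0.10 at 48 h (adjusted p = 0.0642) and -0.04 ± 0.10 at 72 h. At 8 and 48 h no control liver was well above background, so the control level behind the ratio is uncertain. The fitted level in acetaminophen livers was 1.19-fold higher at 8 h and 1.21-fold higher at 48 h, neither called. These are estimates and not minimum values, and they include any dye bias of the probe. The correction sets the size for a probe this dim. Edwards' correction gave 0.58 ± 0.15 at 24 h (adjusted p = 0.0291) and 0.42 ± 0.15 at 48 h (adjusted p = 0.0675). The scanner software's own log ratio, which keeps no offset, gave 2.22 ± 0.70 at 8 h (adjusted p = 0.0841), 2.39 ± 0.70 at 24 h (adjusted p = 0.0464) and 2.13 ± 0.70 at 48 h (adjusted p = 0.0499), and called 17.6% of all genes at 24 h and 28.6% at 48 h.

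Cxcl9 is, with Cxcl10, a ligand of Cxcr3. Its log2 ratios were -0.01 and 0.09 at 3 h, -0.14 and -0.31 at 8 h, -0.11 and -1.34 at 24 h, -0.85 and -1.21 at 48 h, and -0.02 and -0.48 at 72 h. By this probe, the brighter of 2, it was lower in acetaminophen livers on every array from 8 h on. The lowest values were those of 24 h replicate 3 and of both 48 h arrays, while 24 h replicate 1 lay at -0.11. The fitted value was -1.03 ± 0.25 at 48 h (adjusted p = 0.0176), a level 2.04-fold lower in acetaminophen livers. At 24 h it was -0.73 ± 0.25 (adjusted p = 0.134), and with Edwards' correction -1.02 ± 0.15 (adjusted p = 0.00193) from arrays at -0.68 and -1.37. The 48 h call was lost without replicate 3 of that time (-0.85, adjusted p = 0.207), with slide as a block (-0.76, adjusted p = 0.0637) and with median centring (-0.95, adjusted p = 0.0767).

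At 8 h, where Cxcl10 had its highest ratio, Cxcl9 stood at -0.22 ± 0.25 (adjusted p = 0.675), and at 48 h Cxcl10 was called higher and Cxcl9 lower. A second Cxcl9 probe was dimmer and read -0.22 and -0.41 at 48 h, with a fitted value of -0.31 ± 0.15 (adjusted p = 0.157 in the fit over all probes). It was not well above background in either acetaminophen liver at 48 h but was so in both control livers. The fitted value stands for a level 1.24-fold higher in control livers, an estimate that was not called. Its fitted values at the other later times were -0.02 at 8 h, -0.08 at 24 h and 0.13 at 72 h, with single arrays above 0 at 8 h (replicate 2, 0.07) and at 72 h (replicate 3, 0.27). The probe named Cxcl11, for the other Cxcr3 ligand, was not called at any of the 5 times. It was very bright in every liver (mean log2 level 16.4), its sequence was not analysed here, and whether it reads Cxcl11 was not tested.

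Cxcl12, the ligand of Cxcr4 made by stromal and endothelial cells, was read by the brighter of its 2 probes, which was well above background in both channels on all 10 arrays. Its log2 ratios were -0.32 and -0.47 at 3 h, -0.45 and -1.14 at 8 h, -1.14 and -2.09 at 24 h, -0.22 and -1.36 at 48 h, and 0.30 and 0.37 at 72 h. All 8 arrays of 3 to 48 h lay below 0 and both 72 h arrays above it, and the share of all genes with this pattern is not given here. The fitted value was -1.62 ± 0.30 at 24 h (adjusted p = 0.0118), a level 3.07-fold lower in acetaminophen livers. It was -0.79 ± 0.30 at 8 h (adjusted p = 0.140) and -0.79 ± 0.30 at 48 h (adjusted p = 0.0851), and Edwards' correction called the 48 h value of -0.81 ± 0.27 (adjusted p = 0.0473).

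The second Cxcl12 probe, on another transcript record, read -0.57 and -1.55 at 24 h, with a fitted value of -1.06 ± 0.25 (adjusted p = 0.0341 in the fit over all probes, which called 10.1% of them). The 24 h call of the first probe was lost without replicate 3 of that time (-1.14, adjusted p = 0.188) and with slide as a block (-1.56, adjusted p = 0.0502). At 24 h, 6 of 10 hepatocyte markers tested were lower and none higher, against 7.08% of all genes lower, and the summed level of those 10 markers after Edwards' correction was 373610 to 457034 units in acetaminophen livers, against 744935 to 766724 units in control livers. Of 8 sinusoidal endothelial markers and 8 stellate cell markers, none was called at 24 h after normexp, while Edwards' correction called 1 endothelial marker higher, and the endothelial sum after that correction was 6232 to 7638 units in acetaminophen livers, against 6320 to 7731 units in control livers. The part of hepatocyte content in the Cxcl12 result was not tested.

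Cxcl14, Cxcl16 and Cxcl13 were not called at any time after normexp. Cxcl14 read 0.20 and 0.64 at 24 h and 0.34 and 0.26 at 48 h, with fitted values of 0.42 ± 0.12 (adjusted p = 0.0614) and 0.30 ± 0.12 (adjusted p = 0.0882). Edwards' correction called the 24 h value of Cxcl14 at 0.72 ± 0.16 (adjusted p = 0.0127). Cxcl16 stayed between -0.30 and 0.30 on all 10 arrays, with its lowest fitted value of -0.23 ± 0.09 at 8 h (adjusted p = 0.137). Cxcl13, the attractant of B cells, was dim in both channels and had fitted values between -0.16 and 0.21, each with an SE of 0.14. The 6 B cell markers tested were called at no time, with summed levels after Edwards' correction of 523 to 699 units in acetaminophen livers and 535 to 729 units in control livers over the 5 times.

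The control livers were compared over the 5 times in the Cy3 channel after scaling between arrays. By limma's F test none of the 8 genes was called there, against 3.66% of all genes, and 1 of them, Cxcl1, had an unadjusted p under 0.05 (0.0184, adjusted p = 0.139). The mean log2 level of Cxcl1 in control livers was 7.57, 7.27, 8.39, 7.61 and 7.33 at 3, 8, 24, 48 and 72 h. The highest control level was thus at 24 h, and the scanner signals of Cxcl1 at 24 h were 491 and 802 units in acetaminophen livers, against 184 and 316 units in control livers. Cxcl10 had control levels of 8.41, 7.48, 7.83, 7.66 and 7.51 (adjusted p = 0.261).

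Of 10 genes for CXC and atypical chemokine receptors, 9 were tested, since Cxcr4 did not pass the filter. Cxcr2, the neutrophil receptor of Cxcl1 and Cxcl2, had ratios of 0.20 and -0.04 at 3 h, 0.02 and 0.03 at 8 h, 0.37 and 0.98 at 24 h, 0.62 and 0.71 at 48 h, and 0.00 and -0.23 at 72 h. It was higher in acetaminophen than in control livers at 24 h by 0.68 ± 0.14 (adjusted p = 0.0188) and at 48 h by 0.67 ± 0.14 (adjusted p = 0.00876), and with Edwards' correction by 1.34 ± 0.17 and 0.89 ± 0.17. With median centring the 24 h call was lost (0.60, adjusted p = 0.136). None of the 9 receptors was called in the differences between 8 and 3 h, 24 and 8 h or 48 and 24 h. At 8 h, when the Cxcl1 ratio was highest, Cxcr2 was well above background in no liver of either group. Cxcr3, the receptor of Cxcl9 and Cxcl10, and Cxcr5, that of Cxcl13, were called at no time, with fitted values between -0.24 and 0.05.

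Cxcr6, the receptor of Cxcl16, was lower in acetaminophen livers by 0.46 ± 0.13 at 48 h (adjusted p = 0.0278), with arrays at -0.54 and -0.38. Ackr2, a decoy receptor that removes inflammatory CC chemokines, was higher at 8 h by 0.73 ± 0.12 (adjusted p = 0.00783), with arrays at 0.79 and 0.66. Ackr3, which takes up Cxcl12, was higher at 48 h by 0.30 ± 0.07 (adjusted p = 0.0162). With median centring these 3 calls were lost, at -0.34 for Cxcr6 (adjusted p = 0.0534), 0.37 for Ackr2 (adjusted p = 0.101) and 0.27 for Ackr3 (adjusted p = 0.131). Over the 9 receptors, 0, 1, 1, 2 and 0 were higher and 0, 0, 0, 1 and 0 lower from 3 to 72 h, and the same counts came from Edwards' correction. At 48 h, 2 of 9 higher and 1 of 9 lower stood beside 17.9% and 13.5% of all genes, a share near the background, and the 1 of 9 higher at 8 h and at 24 h stood beside 5.33% and 3.79%.

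Of 6 other CXC ligands tested, Pf4, the chemokine of platelet granules, was higher in acetaminophen livers at 48 h by 1.95 ± 0.23 (adjusted p = 0.000732), with arrays at 2.11 and 1.78. Cxcl5, another Cxcr2 ligand, was higher at 48 h by 0.47 ± 0.13 (adjusted p = 0.0272), and Cxcl15 was higher at 3 h by 0.69 ± 0.14 (adjusted p = 0.0250). Thus 1 of 6 was higher at 3 h, against 3.36% of all genes, and 2 of 6 at 48 h, against 17.9%, and the Cxcl5 call was lost with median centring (0.50, adjusted p = 0.0688). The other 3, Cxcl17, Ppbp and the probe named Cxcl11, whose identity is in doubt as described above, were not called, except that Edwards' correction called Cxcl17 at 24 h (0.60 ± 0.10, adjusted p = 0.00294). Cxcl3 did not pass the filter.

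**Figure D3:**
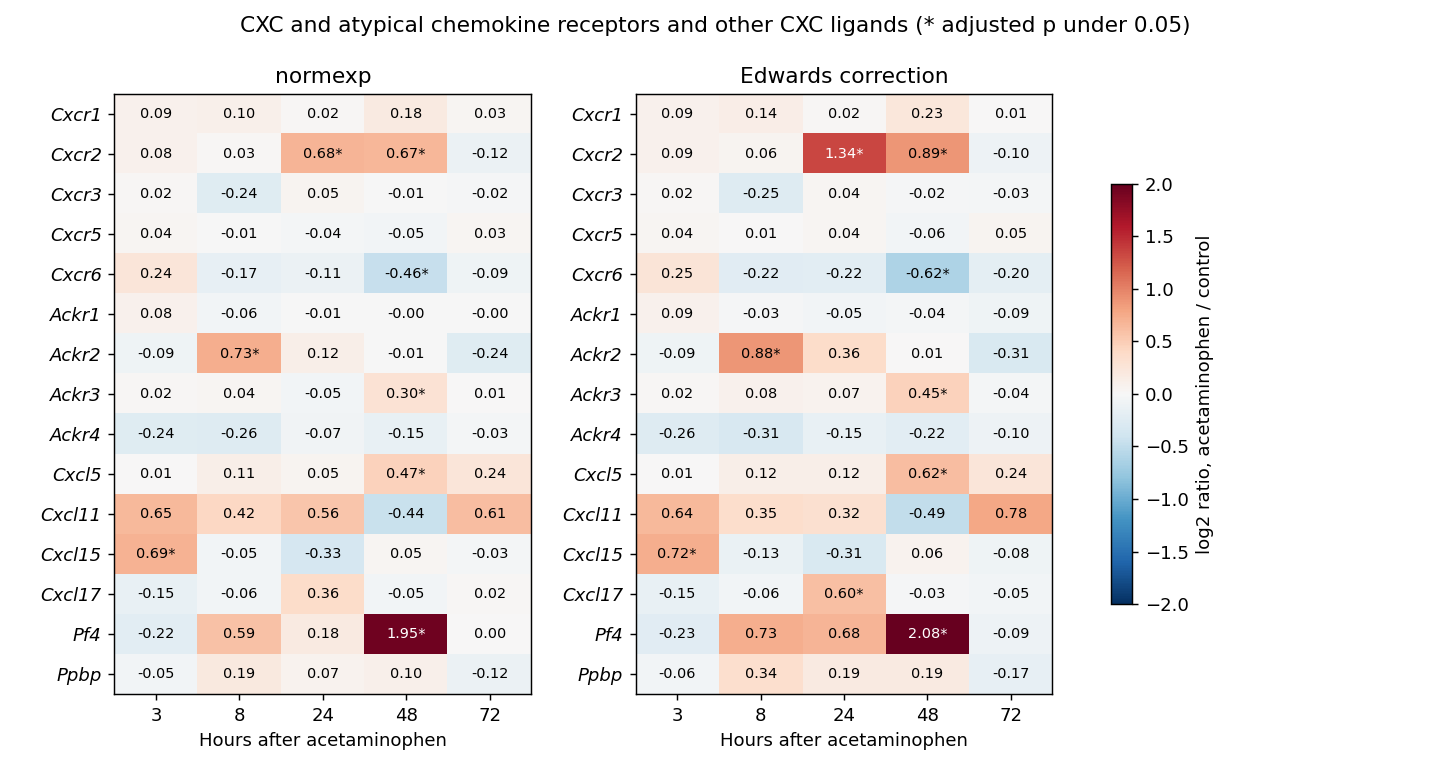
Log2 ratio of acetaminophen over control (colour and printed value) for 9 CXC and atypical chemokine receptors and 6 other CXC ligands (rows) by hours after injection (columns), after normexp (left) and after Edwards' correction (right), with asterisks at adjusted p under 0.05. Cxcr2 is called at 24 and 48 h in both panels and Pf4 at 48 h has the highest value.

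Some neutrophil markers were higher at 24 and 48 h, when Cxcr2 was, and others were not. Of 9 tested, 1 was higher at 3 h (Elane, whose ratio changed sign with median centring) and 1 at 8 h (Lcn2), against 3.36% and 5.33% of all genes. At 24 h 3 of 9 were higher, against 3.79% of all genes, and at 48 h 5 were higher and 1 lower, against 17.9% and 13.5%. None of the 9 was called at 72 h by limma. At 48 h Elane was lower by -0.31 ± 0.09 (0.13 with median centring), Csf3r stood at -0.45 ± 0.18 (adjusted p = 0.0977), and Ltf at -0.13 ± 0.08 (adjusted p = 0.250). S100a8, a calcium-binding protein abundant in neutrophils, was higher by 1.81 ± 0.26 at 24 h (adjusted p = 0.00351) and by 3.41 ± 0.26 at 48 h (adjusted p = 0.000137). The summed level of the 9 markers after Edwards' correction was 16645 to 22113 units in acetaminophen livers, against 11166 to 16256 units in control livers at 3 h, and at 8 h it was 20479 to 30733 units in acetaminophen livers, against 10413 to 20985 units in control livers. At 24 h it was 38402 to 51049 units in acetaminophen livers, against 19728 to 27222 units in control livers, and at 48 h it was 36619 to 57761 units in acetaminophen livers, against 29764 to 38137 units in control livers. Each sum weighs the brightest markers most, and with 2 livers per group the sums were not tested. The defining markers Mpo and Ngp did not pass the filter. The part of cell content in the Cxcl1 and Cxcr2 results was not tested.

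Cytokines known to induce chemokines were mostly uncalled. Of 10 tested, none was called at 3 h by limma, and at 8 h the 1 called, Hmgb1, was lower, with arrays at -1.29 and -0.71 (adjusted p = 0.0314), against 7.57% of all genes lower. Il1b, a main inducer of Cxcl1, stood at -0.16 and -0.28 at 3 h and -0.13 and -0.02 at 8 h. It was higher in acetaminophen livers at 24 h by 0.42 ± 0.08 (adjusted p = 0.0137) and at 48 h by 0.44 ± 0.08 (adjusted p = 0.00497). With median centring its 24 h call was lost (0.36, adjusted p = 0.162). At 24 h Il18 was lower by -1.02 ± 0.23 (adjusted p = 0.0260), and was still called with median centring at -1.31. At 48 h Hmgb1 was lower by -1.09 ± 0.24 (adjusted p = 0.0102), a call lost with median centring at -0.38. Thus 1 of 10 was higher and 1 lower at both times. The shares of all genes were 3.79% and 7.08% at 24 h and 17.9% and 13.5% at 48 h. Il1a, Ifng, Ifnb1 and Lta did not pass the filter on dim probes.

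Genes of NF-kB feedback and targets were read from 14 tested genes, of which 4 were higher and 1 lower at 8 h, against 5.33% and 7.57% of all genes. The 4 were Bcl3 (1.15 ± 0.12), Vcam1 (1.11 ± 0.19), Nfkbiz (0.74 ± 0.12) and Nfkbib (0.61 ± 0.09), and the 1 lower was Cyld (-0.51 ± 0.09), a deubiquitinase that restrains NF-kB. With median centring all 4 calls of higher genes were lost, at 0.45 for Bcl3 (adjusted p = 0.383), 0.59 for Vcam1 (adjusted p = 0.181), 0.57 for Nfkbiz (adjusted p = 0.0551) and -0.06 for Nfkbib (adjusted p = 0.912), while Cyld was still called lower. Bcl3, an IkB-family cofactor, was lower at 3 h by -2.01 ± 0.12 (adjusted p = 0.000255). Vcam1 was higher at 3 h by 1.03 ± 0.19 (adjusted p = 0.0204), a call lost with median centring (0.40, adjusted p = 0.264). At 48 h 4 of 14 were higher, against 17.9% of all genes, among them Tnfaip3 (0.53 ± 0.11) and Tnip1 (0.61 ± 0.12, with the call lost in median centring at an adjusted p of 0.0601), which both restrain NF-kB signalling.

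Genes of the interferon response moved in both directions, and those named here are the called ones with the largest ratios. At 3 h the interferon-inducible GTPase genes Igtp and Irgm1 were lower by -1.08 ± 0.25 and -1.04 ± 0.14 and the transcription factor Irf1 by -0.97 ± 0.13 (adjusted p = 0.00536), while Irf8, another factor of the family, was higher by 0.62 ± 0.12 (0.02, adjusted p = 0.949, with median centring). At 8 h Stat2 was lower by -1.08 ± 0.14, Igtp by -1.24 ± 0.25, Irf1 by -0.80 ± 0.13 and Irgm1 by -0.61 ± 0.14, and with median centring the Irf1 and Irgm1 calls were lost (adjusted p = 0.0551 for both) at larger ratios of -1.47 and -1.24. At 48 h Igtp was lower by -1.02 ± 0.25, Irf1 by -0.95 ± 0.13 and Iigp1, a further interferon-inducible GTPase gene, by -0.75 ± 0.18, and median centring lost these calls at -0.56, -0.47 and -0.28. Rsad2, an interferon-inducible antiviral gene, was higher at 24 h (1.91 ± 0.36, with the call lost in median centring at 1.51, adjusted p = 0.132) and 48 h (2.59 ± 0.36).

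Of 7 tested genes for proteins that regulate mRNA decay, 3 were higher and none lower at both 3 and 8 h. Among all genes 3.36% and 5.33% were higher at these times. Zfp36, which promotes decay of chemokine and cytokine mRNA, was higher by 1.47 ± 0.15 at 3 h and 1.63 ± 0.15 at 8 h, and Zfp36l2 by 0.89 ± 0.12 and 2.04 ± 0.12. With median centring the 3 h values of Zfp36l2 and Zfp36l1 changed sign (-0.13 and -0.25), and at 8 h their calls were lost at 1.33 (adjusted p = 0.0831) and 0.24 (adjusted p = 0.679), while Zfp36 was still called at both times. At 48 h 2 of the 7 were higher (Zfp36l2 and Hnrnpd) and 2 lower, against 17.9% and 13.5% of all genes. The lower ones were Khsrp (-1.03 ± 0.32) and Zfp36l1 (-0.87 ± 0.17). None of these 48 h calls was kept with median centring. Of 9 tested genes for proteases known to act on CXC chemokines, Dpp4, which trims Cxcl10 and Cxcl12, was the 1 called at 24 h. It was lower by -1.15 ± 0.17 (adjusted p = 0.00391), against 7.08% of all genes lower. At 48 h 2 of the 9 were higher and 2 lower, against 17.9% and 13.5% of all genes. Adam10 was higher by 0.92 ± 0.10 (adjusted p = 0.000437) and Mmp8 by 0.58 ± 0.11 (adjusted p = 0.00602), both still called with median centring. Dpp4 was lower by -0.82 ± 0.17 and Ctsg by -0.39 ± 0.08. Both of these calls were lost with median centring, at -0.44 (adjusted p = 0.389) and -0.18 (adjusted p = 0.393).

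Genes whose log2 ratios came nearest to those of a chemokine were ranked by the root mean square difference over the 10 arrays among 17533 genes. Lcn2, an iron-binding protein of neutrophils and injured liver, was nearest to Cxcl1 with a difference of 0.53, followed by Gclc with 0.69 and Map3k6 with 0.74, where a flat profile at 0 would differ by 1.80. Lcn2 had ratios of -0.14, 2.28, 1.41, 1.93 and 0.26 from 3 to 72 h, beside -0.19, 3.15, 1.33, 1.97 and 0.36 for Cxcl1. Nearest to Cxcl10 were Cxcl1 (0.81), Hilpda (1.07) and Gclc (1.08), with 2.39 for a flat profile. With Edwards' correction the first 2 places for both were unchanged, and the third went to Acot2 for Cxcl1 and to Tnfrsf12a for Cxcl10. For Cxcl2 the nearest were Olfr2, Tmem174 and Lipo4 at 0.05 to 0.06, where a flat profile differs by 0.21, and none of the 3 was among the nearest with Edwards' correction.

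**Figure D4:**
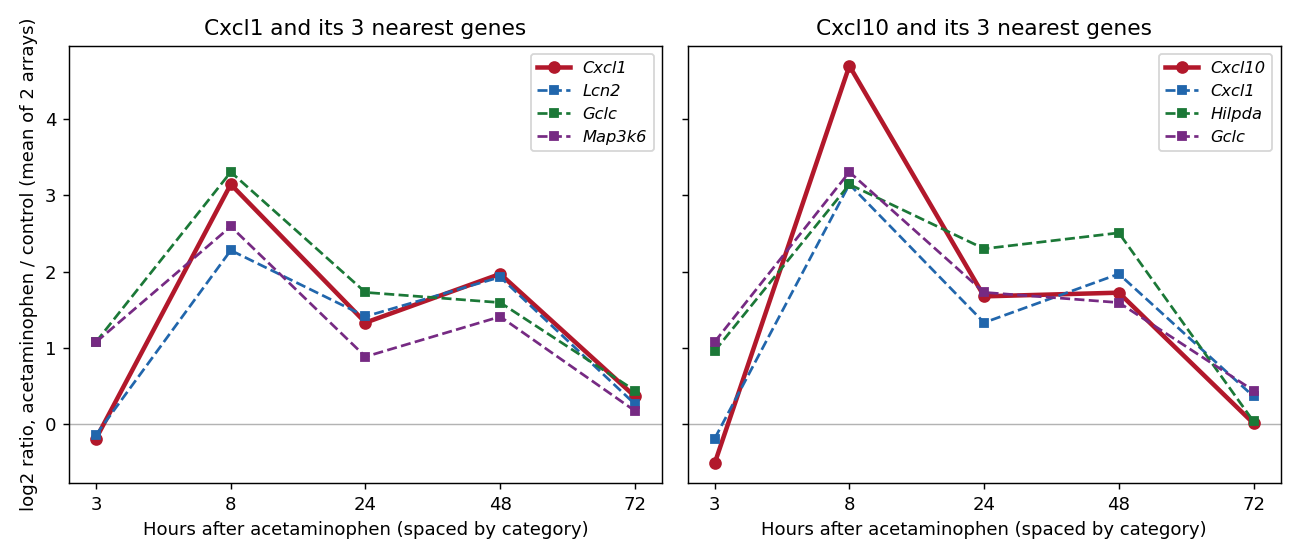
Log2 ratio of acetaminophen over control (vertical axis, mean of 2 arrays) against hours after injection (horizontal axis) for Cxcl1 (left) and Cxcl10 (right) as solid lines and their 3 nearest genes as dashed lines. Each gene drawn has its highest ratio at 8 h, and Gclc, Map3k6 and Hilpda lie above 0 at 3 h, when Cxcl1 and Cxcl10 do not.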

How the data were processed

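RNA of whole liver was measured on 10 Agilent 2-colour arrays. Spot intensities, their local background and flags were deposited as made by Agilent Feature Extraction 10.7.3.1, per the file headers. The log10 ratio of Cy5 over Cy3 was deposited in the same files, per the file headers, and the score column of the authors' value table was proportional to it. Map positions (mm9) and gene names are those of the array files. In R 4.3.3 with limma 3.58.1, mean intensity was corrected with normexp (offset 50) and loess was applied within arrays, with control spots at weight 0 and outlier-flagged spots left out. The filter kept 29623 of 39429 probes, namely those well above background in the same channel of both arrays for some time point, and the brightest stood for each gene. limma fitted a mean per time point over all 10 arrays (5 residual degrees of freedom), and the fit was tested on simulated data. Array numbers limit the precision, and the labels number separate mice. Replicate numbers did not pair the arrays (correlations of deviations from -0.12 to 0.29). Arrays lay on 4 slides and 2 scan days, each day holding 1 array per time point. Named were the 8 genes, all receptors and other ligands, a selection of called and uncalled genes of the other lists, and the 3 nearest genes. That selection does not always hold the largest ratio of a list at each time. The count of calls over the interferon-response list is not reported here. The genes, lists and tests were chosen with earlier results of these data known.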

Additional observations from a re-analysis of the deposited data

Results flagged for a closer look

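Differences between neighbouring time points in the ratio of acetaminophen over control stood out for Cxcl1 and Cxcl10. For Cxcl1 the log2 ratio differed by 3.34 between 8 and 3 h, by -1.82 between 24 and 8 h and by -1.61 between 72 and 48 h, each past the threshold in limma's fit. For Cxcl10 the same differences were 5.22, -3.03 and -1.72. Part of the Cxcl1 difference between 24 and 8 h lay in the control channel, with a mean log2 level of 7.27 at 8 h and 8.39 at 24 h. The call for 72 against 48 h rests on an array with nearly flat ratios, the 72 h replicate 1 array, and neither gene was called in that comparison without it, while both were called with Edwards' correction at -1.57 for Cxcl1 and -2.03 for Cxcl10. It was also lost for both without 48 h replicate 3. Neither gene was called in any of the 3 comparisons with median centring, in 8 against 3 h or 24 against 8 h with slide as a block, or in 8 against 3 h without 3 h replicate 1.

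In 3 further comparisons both arrays of one time lay on the opposite side of 0 from both arrays of its neighbour, with no call. The share of all genes with this pattern is not given here, so it cannot be read as a result about the chemokines. Cxcl12 differed by 1.12 between 72 and 48 h (adjusted p = 0.121), Cxcl14 by 0.31 between 8 and 3 h (adjusted p = 0.401) and Cxcl16 by 0.26 between 24 and 8 h (adjusted p = 0.290).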

How the results depend on the processing

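Cxcl1 and Cxcl10 at 8 and 48 h were called higher under all 22 alternatives that tested them, at 2.60 to 4.10 and 1.72 to 2.72 for Cxcl1 and 2.78 to 5.36 and 0.82 to 2.39 for Cxcl10 on the log2 scale, the lowest Cxcl10 values coming from the mean of its 2 probes. The counts of the 8 genes called (0, 2, 3, 3 and 0 at 3 to 72 h; 2, 2, 0 and 2 for neighbouring times; 2 by the F test; 0 in control livers) moved as follows. The software's own ratio and the authors' value table, which is proportional to it, each gave 5 at 24 h, 5 at 48 h, 1 for 8 against 3 h, 1 for 24 against 8 h and 4 by the F test. The software's own ratio called 17.6% of all genes at 24 h and 28.6% at 48 h. Edwards' correction gave 6 at 24 h and 4 by the F test, against 19.8% and 29.5% of all genes. No background correction gave 6 at 24 h, 4 for 72 against 48 h and 5 by the F test, and normexp without an offset gave 1 for 24 against 8 h and 1 for 72 against 48 h. Median centring gave 3 at 3 h, 4 at 8 h, 1 at 24 h and 0 for 8 against 3 h, 24 against 8 h and 72 against 48 h. It called Cxcl2 at 3 and 8 h, at 0.36 and 0.41. It also shifted the median of all genes to -0.24 at 3 h and -0.18 at 8 h and the split of higher and lower genes to 1003 and 4999, 161 and 2367, 26 and 728, and 2518 and 382 at 3 to 48 h, where loess gave 807 and 979, 1280 and 1818, 910 and 1700, and 4306 and 3235. A filter for probes well above background in both channels on all arrays kept 3 of the 8 genes, without Cxcl1 or Cxcl10, and gave 0 at 8 h, 1 at 24 h, 0 for 8 against 3 h, 24 against 8 h and 72 against 48 h, and 1 by the F test. Slide as a block gave 1 at 24 h, 0 for 8 against 3 h, 0 for 24 against 8 h, 1 for 72 against 48 h and 1 by the F test. The mean of probes gave 1 for 72 against 48 h, and an intensity trend in the variance gave 1 there and 1 for 24 against 8 h. The replicate block gave 1 for 8 against 3 h and 1 for 24 against 8 h and otherwise kept each count within 1.5 times. Leaving out 1 array gave 0, 2 to 3, 0 to 4, 2 to 4 and 0 at 3 to 72 h, 0 to 2, 1 to 2, 0 and 0 to 3 for neighbouring times, 2 to 3 by the F test and 0 in control livers. It was 0 at 24 h without replicate 3 of that time, 0 for 8 against 3 h without 3 h replicate 1, and 0 for 72 against 48 h without 48 h replicate 3 or without 72 h replicate 1. Otherwise the cause of these changes was not tested. Where no share of all genes stands beside a count, its change cannot be told apart from a change over all genes.

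For single genes and times, 808 of the alternative values kept direction and side of the threshold, 34 newly passed, 11 no longer passed, 42 changed sign with no call on either side, and 0 reversed a call. Of 101 called values in the other lists, 50 were called in the same direction with median centring and 6 changed sign, none of them called there. Signal over background limits Cxcl2, Cxcl13 and the second probes of Cxcl9 and Cxcl10, and at 72 h 1 array had nearly flat ratios.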
